A study of Mus musculus with 18 samples.

Results

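Single-exon protein-coding genes were examined in C2C12, an established line of mouse muscle cells whose dividing myoblasts fuse into myotubes when they differentiate. A gene was a member when it was protein-coding in GENCODE M21 (build mm10) and each of its transcripts had 1 exon. Of 21951 protein-coding genes, 1331 met this rule, and 62 genes with symbols beginning Hist, 2 beginning Jun, 6 beginning Fzd, 107 olfactory receptor and 65 vomeronasal receptor genes were set aside. The 1089 remaining genes were the members. The deposited tables held a row for 1013 of them, and the 76 without a row included the 13 mitochondrially encoded genes.

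PolyA RNA was sequenced at 2 stages, myoblasts and myotubes, from cells given a control siRNA (si-Ctrl), the first Setd2 siRNA (si-Setd2#1, here siRNA 1) or the second (si-Setd2#2, here siRNA 2). Each of the 6 groups had 3 libraries labelled biological replicates, 18 in all. According to the labels, all cells, controls included, had been stretched just before the RNA was taken, and no unstretched group was used here. The depletion is a knockdown in 1 established line, and the siRNA sequences were not used here.

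SETD2 is the histone methyltransferase that places the trimethyl mark on lysine 36 of histone H3, in the bodies of genes that are being transcribed. The mark accumulates over spliced genes and their exons, and SETD2 travels with elongating RNA polymerase II. Genes without introns need no splicing for their messenger RNA to leave the nucleus, and many of them encode transcription factors, receptors, chaperones or processed copies of other genes. The question put to the data was how the RNA of such genes stood across differentiation and Setd2 depletion, beside spliced genes of like expression.

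Totals ran from 43.5 to 66.6 megareads per library. Setd2 itself was at 99.3 to 121 CPM (counts scaled to library size) in the 6 control libraries and at 33.6 to 58.1 CPM in the 12 depleted ones. Of the fixed markers of other cell types, all 4 adipocyte, 3 osteoblast and 3 endothelial genes were under 1 TPM (a level scaled to length and library size) in every library. So were the leukocyte markers Ptprc and Lyz2 and the neuron markers Snap25 and Syt1. The third leukocyte marker, Cd68, was at 1.02 to 3.22 TPM, and the third neuron marker, Tubb3, at 38.6 to 224 TPM. Myotube markers summed to 39.5 to 111 TPM in control myoblasts and to 13600 to 14500 TPM in control myotubes. The 5 myoblast markers also summed higher in control myotubes (2680 to 2850 TPM) than in control myoblasts (821 to 952 TPM). Myod1, Cdh15 and Des were higher there, Myf5 and Pax7 lower. In depleted myoblasts the 5 summed to 998 to 1070 TPM with siRNA 1 and 1120 to 1200 TPM with siRNA 2, above control. The part of this difference in the depletion values was not tested. The column of the third siRNA 2 myoblast library is named SETD3 where its label has SETD2, and the column of the third myotube control has NT_2 where other controls have NT_1. Counts without these libraries are given below.

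The start regions of 5 members show the range of promoters in the set. They are RefSeq windows on GRCm38.p6, the assembly of mm10, that span 250 bases before to 50 bases after the annotated start and are written in the direction of the gene. Capitals mark, on either strand, the TATA box letters TATAAA, the motif CCAAT and the GC box letters GGGCGG. B3galt4 (chr17:33951439-33951738, minus strand) rose with each siRNA at both stages. Foxc1 (chr13:31806396-31806695, plus strand) fell with each siRNA at both stages. Cebpb (chr2:167688665-167688964, plus strand) fell with each siRNA in myoblasts. Rhob (chr12:8499960-8500259, minus strand) had the highest control TPM among members that share no sequence with another gene. Hspb3 (chr13:113663627-113663926, minus strand) rose from near 0 on differentiation.
B3galt4: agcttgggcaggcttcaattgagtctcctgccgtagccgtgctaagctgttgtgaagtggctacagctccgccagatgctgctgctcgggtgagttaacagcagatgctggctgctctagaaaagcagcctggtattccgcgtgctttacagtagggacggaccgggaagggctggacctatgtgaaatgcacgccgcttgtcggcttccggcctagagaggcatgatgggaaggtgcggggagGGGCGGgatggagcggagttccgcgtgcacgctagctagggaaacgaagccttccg
Foxc1: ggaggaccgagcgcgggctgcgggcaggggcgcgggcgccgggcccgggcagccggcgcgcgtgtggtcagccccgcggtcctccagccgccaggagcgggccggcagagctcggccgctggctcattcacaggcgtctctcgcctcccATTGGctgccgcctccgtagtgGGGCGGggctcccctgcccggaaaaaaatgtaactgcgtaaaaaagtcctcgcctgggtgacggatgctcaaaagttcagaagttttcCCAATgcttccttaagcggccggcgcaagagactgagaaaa
Cebpb: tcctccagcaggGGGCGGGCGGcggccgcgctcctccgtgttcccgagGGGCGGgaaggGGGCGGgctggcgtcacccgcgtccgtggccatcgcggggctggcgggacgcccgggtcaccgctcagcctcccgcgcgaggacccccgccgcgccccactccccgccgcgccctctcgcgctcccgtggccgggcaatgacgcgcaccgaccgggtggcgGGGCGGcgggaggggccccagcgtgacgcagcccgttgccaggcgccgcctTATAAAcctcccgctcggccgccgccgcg
Rhob: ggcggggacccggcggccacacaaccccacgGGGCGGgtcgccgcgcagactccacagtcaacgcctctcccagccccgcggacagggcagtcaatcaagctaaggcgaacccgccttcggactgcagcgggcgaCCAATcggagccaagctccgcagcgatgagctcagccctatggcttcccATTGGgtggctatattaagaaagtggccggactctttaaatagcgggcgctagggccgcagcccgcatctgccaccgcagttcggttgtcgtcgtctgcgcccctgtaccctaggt
Hspb3: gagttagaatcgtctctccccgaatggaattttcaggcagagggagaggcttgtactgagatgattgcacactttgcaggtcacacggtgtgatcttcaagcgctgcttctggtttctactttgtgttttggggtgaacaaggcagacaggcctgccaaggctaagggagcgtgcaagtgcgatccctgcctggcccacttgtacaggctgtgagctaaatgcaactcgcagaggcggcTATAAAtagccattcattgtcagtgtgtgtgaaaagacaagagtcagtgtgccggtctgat

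B3galt4 has 1 GC box and no TATA or CCAAT box, Foxc1 has 2 CCAAT boxes and 1 GC box, and Cebpb has 1 TATA box and 5 GC boxes. Rhob has 2 CCAAT boxes and 1 GC box, and Hspb3 has 1 TATA box alone. Of the 323 members tested in all libraries, 186 had such a window. These windows had a median of 59.2% GC and 18 CpG, beside 60.7% and 20 in the windows of 10328 tested spliced genes and 52.7% and 7 in all 32851 windows. TATAAA was found in 8.6% of member windows (7.35% of spliced, 13.6% of all) and CCAAT in 38.7% (38.8% and 37.4%). GGGCGG was found in 54.3% (63.8% and 35.7%), the E-box CAGCTG in 16.7% (15.4% and 16.3%) and the cyclic AMP response element TGACGTCA in 4.3% (3.15% and 1.79%). All motifs were searched on both strands, and CAGCTG and TGACGTCA are their own reverse complements.

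Most members were silent or nearly so in these cells. Of the 1013 with a row, 418 had no count in any library and 564 had fewer than 10 counts over all 18 libraries. In the 6 control libraries 11 members (1.09%) averaged at least 100 TPM, 89 (8.79%) lay between 10 and 100 TPM and 113 (11.2%) between 1 and 10 TPM. Among 19009 spliced genes these shares were 8.52%, 36.8% and 14%. None of the 70 hair keratin-associated, interferon and defensin genes passed the filter on low counts, and 7 of the 85 G protein-coupled receptors did. By contrast 17 of 18 protocadherins, all 5 immediate early genes and 10 of 15 genes of the ubiquitin system passed.

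The filter left 285 members in myoblasts, 293 in myotubes and 323 over all libraries, so that 690 were not tested. Tested members were short and lowly expressed. Their median exonic length was 1977 bases against 4489 bases for 13159 tested spliced genes, and their median control level was 3.09 TPM against 20.3 TPM. Their median GC content was 52.4% against 49.9%. Many tested members overlap or resemble other genes: 75 of 323 had at least 50% of their 31-base words in transcripts of other genes, 96 overlapped an exon of another gene and 107 lay wholly within another gene. No source used here says whether the libraries keep the strand, and reads of a member and of its antisense partner cannot be told apart.

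The most abundant members were regulators of RNA, chromatin and the cytoskeleton, together with processed copies of other genes. Rhob, a small GTPase of the actin cytoskeleton whose message is induced at once by many stimuli, was at 396 ± 15 TPM (SD, n = 3) in control myoblasts and 582 ± 15.4 TPM in control myotubes. Pcbp1, a poly(C)-binding regulator of splicing and mRNA stability, was at 453 ± 8.96 and 407 ± 17.4 TPM. Hnrnpa0, an RNA-binding protein, was at 321 ± 15.1 and 164 ± 12.9 TPM. The linker histone gene H1f0 was at 150 ± 15.6 and 143 ± 1.96 TPM, a difference within the spread of the libraries. Purb, a single-stranded DNA- and RNA-binding repressor of actin genes, was at 132 ± 4.04 and 153 ± 1.95 TPM, and Cenpb, which binds centromeric repeats, was at 109 ± 5.08 and 112 ± 6.22 TPM. The other 6 of the leading 12 share over 90% of their 31-base words with other genes, and their levels are uncertain: Gm10260 (with Gm26619), Hmga1b (Hmga1), Gm11808, Gm2000 (Rpl35), Nutf2-ps1 (Nutf2) and Gm4737 (Ahcy).

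As a group, members took a small share of the counts. Leaving out 2 genes made of ribosomal RNA sequence, they took between 0.758% and 0.785% in control myoblasts, between 0.734% and 0.746% under siRNA 1 and between 0.721% and 0.726% under siRNA 2, and these ranges did not overlap. The myotube ranges were 0.667% to 0.701% (control), 0.656% to 0.661% (siRNA 1) and 0.618% to 0.657% (siRNA 2), of which the depleted ones overlapped each other and lay below control. The separation depended on the measure. As a share of TPM, myotubes with siRNA 2 (0.556% to 0.594%) overlapped control myotubes (0.59% to 0.613%), and myoblasts with siRNA 1 reached 0.705%, just under the lowest control at 0.706%. Among members with less than 50% of their 31-base words in other genes, the shares of counts in myoblasts with siRNA 1 (0.546% to 0.566%) and siRNA 2 (0.539% to 0.548%) overlapped each other, below 0.575% to 0.603% in control. The ribosomal RNA-like genes took at most 1.36% of all counts in control myoblasts, at least 3.56% under siRNA 1 and from 1.46% to 4.1% under siRNA 2, and their part in the share of members was not tested. In bulk RNA, fewer cells of a type and less RNA per cell cannot be told apart.

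Differentiation of control cells moved most members, in both directions. Of 323 tested, 133 rose (41.2%) and 104 fell (32.2%) in control myotubes against control myoblasts, 73.4% in all. Of these 323, 285 passed the filter on low counts in myoblasts, 293 in myotubes and 255 in both. For members that passed only in myoblasts or only in myotubes, the filter itself favoured a higher level there. They are included in these counts and shares and in the median of members below, and values without them were not computed. Of all 16930 genes tested, 77.5% were called, 39.4% up and 38.1% down. Spliced genes at like expression were called in 76.3%, with 44.7% up and 31.6% down. Called means an adjusted p under 0.05 by edgeR's quasi-likelihood test with Benjamini-Hochberg adjustment over all genes, here and below. The median log2 difference of members was 0.14, beside 0.31 for the spliced genes at like expression and 0.00 for all genes tested. Stage and deposited table changed together in this comparison and cannot be told apart.

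**Figure D1:**
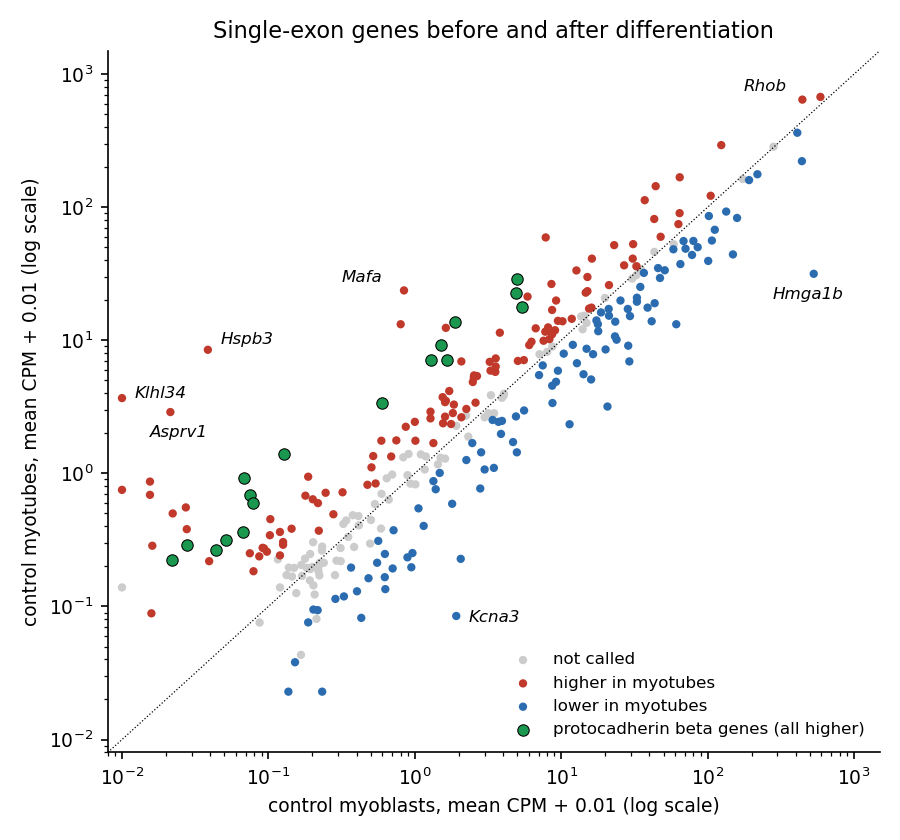
Mean CPM plus 0.01 of the 323 tested single-exon genes in control myoblasts (horizontal axis) and control myotubes (vertical axis), both on log scales, each point 1 gene and the dotted line equality. Red points were called higher in myotubes, blue points lower and grey points neither, and green points mark the 17 protocadherin beta genes, 9 of which passed the filter on low counts only through myotubes.

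The largest rises were in genes that were almost silent in myoblasts. Klhl34, a Kelch-like adaptor, had no count in any control myoblast library and was at 4.29, 2.92 and 3.81 CPM in control myotubes, which is at least 204-fold higher when the myoblast group is set to a floor of 3 counts. Kbtbd13, a Kelch adaptor of ubiquitin ligases mutated in a congenital myopathy, likewise had no count in control myoblasts and 117 in control myotubes, at least 41.8-fold higher on the same floor. Hspb3, a small heat shock protein of muscle, was at 0.0497, 0.0183 and 0.0177 CPM in myoblasts and at 8.71, 8.09 and 8.65 CPM in myotubes, a log2 change of 8.07 ± 0.27 (SE). Asprv1, a retrovirus-like aspartic protease known from skin, had 2 counts in control myoblasts and 461 in control myotubes, a ratio of 247 after scaling (95% counting interval from 68.1 to 2050). Klhl34, Kbtbd13, Hspb3 and Asprv1 passed the filter on low counts only through myotubes and had to be higher there. Their rises are given as levels, without a test.

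Among transcription factors, Mafa, a large Maf factor known as an activator of the insulin gene, was at 0.763, 0.734 and 1.01 CPM in control myoblasts. In control myotubes it was at 25.1, 21.1 and 24.9 CPM, a log2 rise of 4.82 ± 0.12 (adjusted p = 8.96e-18). Ascl5, a basic helix-loop-helix factor, went from 1 to 46 counts over the 3 libraries of a group, and passed the filter only through myotubes. Of 6 tested FOX genes 4 fell, among them Foxc2 (log2 -1.65 ± 0.11) and Foxs1 (log2 -1.25 ± 0.18), while Foxq1 rose (log2 1.04 ± 0.21). Sox11, which acts in progenitor cells and neurons, rose by 1.25 ± 0.06 on the log2 scale, while Sox4 (log2 -0.27 ± 0.07) fell. Sox2 (log2 -3.92 ± 0.7) was lower in myotubes, but passed the filter only through myoblasts and had to be higher there.

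Rises were also called among genes of adhesion and domesticated retroelements. The 8 protocadherin beta genes that passed the filter in myoblasts all rose, with a median log2 difference of 2.48 and a range from 1.73 to 2.88. The other 9 passed only through myotubes, had to be higher there and are not counted. Of 11 tested domesticated retroelement and X-linked genes, 7 rose and 2 fell, among the rises Pnmal2 (log2 1.70 ± 0.13) and Rtl8b (log2 1.40 ± 0.07). Only 9 of the 11 passed the filter in myoblasts. Nap1l3 and Rtl8c passed only through myotubes, had to be higher there and are no support. Rtl8b shares 85.1% of its 31-base words with other genes. Tmem158, a membrane protein induced by Ras signalling, went from 7.83 ± 1.32 to 59.3 ± 2.73 CPM, and Fibin, a secreted protein, from 0.791 ± 0.387 to 13.2 ± 1.12 CPM.

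The falls included genes of dividing cells. Haspin, the kinase that phosphorylates histone H3 in mitosis, fell from 21.2, 21 and 19.7 CPM to 3.1, 3.18 and 3.24 CPM (log2 -2.7 ± 0.09, adjusted p = 3.25e-16). H2afx, the histone variant marked at DNA breaks, fell from 61.1 ± 1.06 to 13.2 ± 1.16 CPM (log2 -2.21 ± 0.05). Epop, a partner of Polycomb complexes, fell by 2.28 ± 0.1 on the log2 scale, and Fut4, a fucosyltransferase, by 1.78 ± 0.15. Kcna3, a voltage-gated potassium channel, fell from 1.91 ± 0.193 to 0.0748 ± 0.0707 CPM, and Kbtbd6, an adaptor of ubiquitin ligases, from 2.05 ± 0.228 to 0.218 ± 0.102 CPM. Hmga1b fell from 531 ± 12.9 to 31.6 ± 3.09 CPM, but 92.7% of its 31-base words are in other genes, chiefly Hmga1, and the source of its reads is uncertain. The same holds for Gm10184 (99%, Kpna2) and Gm4737 (95.6%, Ahcy), which fell as well.

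In myoblasts, Setd2 depletion left a smaller share of members called than of all genes, and more of the called members fell than rose. Beside spliced genes at like expression, the share called was smaller with siRNA 1 (10.9% against 15.5%) but not with siRNA 2 (27.7% against 26.5%). With siRNA 1, 10 of 285 rose and 21 fell (10.9%), where 20% of all 15586 genes tested were called, 11.6% up and 8.44% down. With siRNA 2, 25 rose and 54 fell (27.7%), where 33.5% of all genes were called, 17.1% up and 16.5% down. With each siRNA in the same direction 4 rose and 14 fell (6.32%), where 11.9% of all genes did so, 7.69% up and 4.25% down. The 2 siRNA contrasts share their controls. With the prefix of the library names as a further term, 19 members rose and 45 fell with siRNA 1 (22.5%, beside 32.3% of all genes), 37 rose and 74 fell with siRNA 2 (38.9%, beside 46.3%), and 8 rose and 25 fell with each (11.6%, beside 19.8%).

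The shares that rose were also below those of spliced genes at like expression. With siRNA 1, 3.51% of members rose against 8.13% of such spliced genes, and 7.37% fell against 7.33%. With siRNA 2, 8.77% of members rose against 13.9%, and 18.9% fell against 12.6%. These shares are descriptions without a test. The count with siRNA 1 was 20 without the second control, 19 without the third control and 20 without the second siRNA 1 library. On the TPM scale the calls with siRNA 1 split as 4 up and 29 down. The median log2 change of all genes was also lower on that scale, -0.057 against 0.005 in the main fit. No share of all genes called is given for it. Without the library named SETD3, 71 members were called with siRNA 2 and 15 with each siRNA. No share of all genes called is given for the fits without a library. Whether these counts changed more than those of other genes cannot be told.

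**Figure D2:**
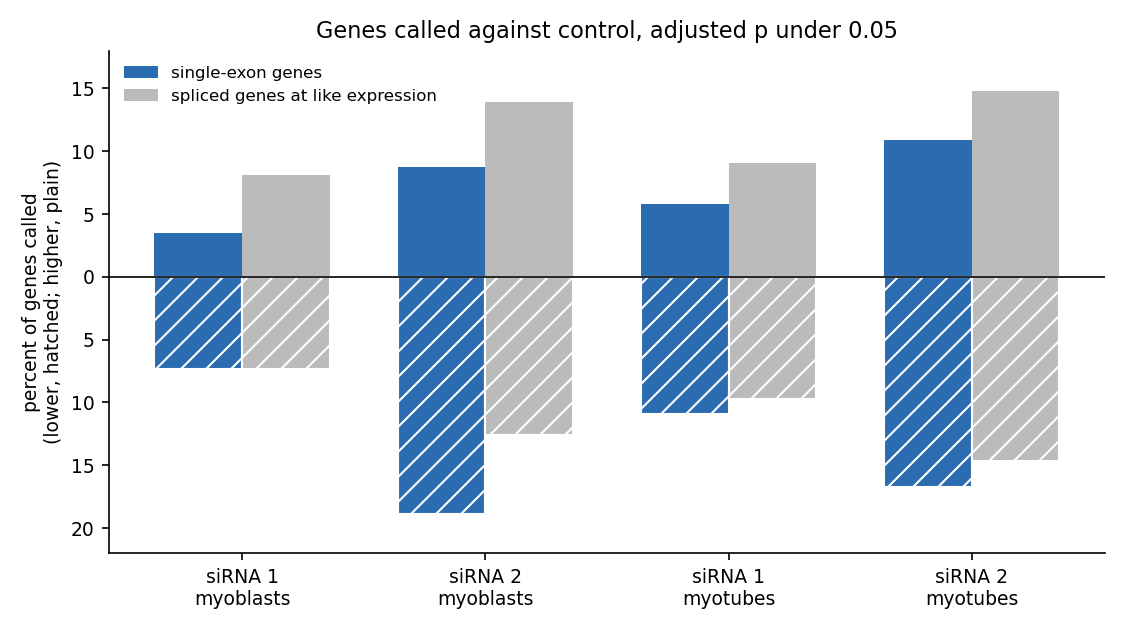
Percent of genes called higher (plain, above 0) and lower (hatched, below 0) against control, for tested single-exon genes (blue) and for spliced genes at like expression (grey). In all 4 comparisons the blue bars above 0 are shorter than the grey ones, from 3.51% against 8.13% to 10.9% against 14.8%.

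The 4 members that rose with each siRNA in myoblasts were B3galt4, B630019K06Rik, Rpl10-ps3 and Mgat2. B3galt4 (chromosome 17, 33949909 to 33951488), a galactosyltransferase of ganglioside synthesis, was at 0.865, 1.03 and 0.938 CPM in control myoblasts. It was at 1.51, 1.39 and 1.9 CPM with siRNA 1 and at 2.01, 2.34 and 2.38 CPM with siRNA 2, all above the controls. The log2 changes were 0.76 ± 0.16 (adjusted p = 0.00624) and 1.25 ± 0.16 (adjusted p = 7.45e-05). Mgat2, which builds complex N-glycans in the Golgi, went from 81.7 ± 2.79 to 95.7 ± 1.17 and 102 ± 1.88 CPM, log2 changes of 0.23 ± 0.03 and 0.32 ± 0.03. Rpl10-ps3 shares 96.6% of its 31-base words with other genes, mainly Rpl10, so its rise is of uncertain source.

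Transcription factors stood among the 14 members that fell with each siRNA in myoblasts. Cebpb (chromosome 2, 167688915 to 167690418), a leucine zipper factor of stress and differentiation, was at 69.1, 63.8 and 67.1 CPM in controls. It was at 53, 52.3 and 52.2 CPM with siRNA 1 and at 43.1, 48.2 and 45.9 CPM with siRNA 2, with no overlap between the 3 groups. Its log2 changes were -0.34 ± 0.04 (adjusted p = 0.000153) and -0.55 ± 0.04 (adjusted p = 1.59e-06). Tmem189 overlaps it on the other strand, and 19.6% of its 31-base words are shared. Foxc1 (chromosome 13, 31806633 to 31812476), a forkhead factor of mesoderm, was at 20.4, 22.5 and 22 CPM in controls, at 17.3, 17.5 and 18.3 CPM with siRNA 1 and at 17.5, 17.3 and 16.6 CPM with siRNA 2. Its log2 changes were -0.29 ± 0.05 (adjusted p = 0.00208) and -0.34 ± 0.05 (adjusted p = 0.000328). Of 6 tested FOX genes Foxc1 and Foxq1 fell with each siRNA. Foxq1 went from 3.64 ± 0.93 to 1.28 ± 0.52 and 1.91 ± 0.299 CPM, and A530084C06Rik, which lies wholly within Foxq1 on the other strand, fell beside it, so that their reads cannot be told apart.

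The fall with the smallest adjusted p for siRNA 1 was that of Ccdc71l (chromosome 12, 32378704 to 32382943). It was at 30.2, 30.4 and 29.9 CPM in control myoblasts, at 16.6, 18.2 and 17.2 CPM with siRNA 1 and at 18.9, 20.2 and 19.9 CPM with siRNA 2. The 3 groups did not overlap, and the log2 changes were -0.8 ± 0.05 (adjusted p = 4.56e-07) and -0.62 ± 0.05 (adjusted p = 9.82e-07). Gm14137 (log2 -0.54 ± 0.05 and -0.64 ± 0.05), which lies inside Dnajc17, Itpripl2 (log2 -0.49 ± 0.07 and -0.39 ± 0.07) and Inafm1 (log2 -0.48 ± 0.1 and -0.87 ± 0.11) fell with each siRNA. Sowahc, an ankyrin repeat protein (log2 -0.37 ± 0.04 and -0.43 ± 0.04), and Rnf113a2, a ring finger protein (log2 -0.38 ± 0.12 and -0.55 ± 0.12), did so too, as did Inafm2, Kbtbd7, Mars2 and Sephs2, named to complete the 14. All 6 depleted libraries lay on one side of the 3 controls for each of the 18 members called with each siRNA.

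Immediate early genes did not move one way. Of the 5 tested in myoblasts, Cebpb and Ier5 fell with siRNA 1, while Rhob, Ier2 and Ier5l rose with siRNA 2 and Cebpb fell. Rhob was at 474, 445 and 444 CPM in controls and at 582, 555 and 589 CPM with siRNA 2 (log2 0.34 ± 0.04, adjusted p = 1.23e-05), and its change with siRNA 1 was 0.10 ± 0.04 (adjusted p = 0.0804). In myotubes Rhob fell with siRNA 2 (log2 -0.15 ± 0.04, adjusted p = 0.018). Abundant genes of nucleic acid-binding proteins did not move one way either. Hnrnpa0 and Pcbp1 fell with siRNA 2 in myoblasts, Hnrnpa0 by 0.6 ± 0.04 on the log2 scale (adjusted p = 2.54e-07) and Pcbp1 by 0.33 ± 0.03 (adjusted p = 2.85e-06). Purb was at 603 ± 18.2 CPM in controls and 639 ± 20.3 CPM with siRNA 2 (log2 0.08 ± 0.04, adjusted p = 0.135). With siRNA 1 the changes of Hnrnpa0 and Pcbp1 were -0.02 ± 0.04 (adjusted p = 0.835) and -0.04 ± 0.03 (adjusted p = 0.341). Cenpb rose with siRNA 1 (log2 0.15 ± 0.04, adjusted p = 0.0113) but not with siRNA 2 (log2 -0.001 ± 0.036, adjusted p = 0.984). H1f0 rose with siRNA 2 (log2 0.41 ± 0.13, adjusted p = 0.0419) but not with siRNA 1 (log2 0.03 ± 0.13, adjusted p = 0.894).

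In myotubes the members called were again more often lower than higher. With siRNA 1, 17 of 293 rose and 32 fell (16.7%), where 20.5% of all 16097 genes tested were called, 11% up and 9.57% down. With siRNA 2, 32 rose and 49 fell (27.6%), where 32.2% of all genes were called, 15.8% up and 16.4% down. With each siRNA in the same direction 10 rose and 27 fell (12.6%), where 13.4% of all genes did so, 7.14% up and 6.27% down. Spliced genes at like expression rose in 9.05% and fell in 9.7% with siRNA 1, beside 5.8% and 10.9% of members. With siRNA 2 they rose in 14.8% and fell in 14.7%, beside 10.9% and 16.7%. Of the 27 members that fell with each siRNA, 13 were protocadherin beta genes and 14 were not.

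The count of 37 with each siRNA was 22 without the second control, 22 without the second or the third siRNA 1 library, and 23 without the third control, the one named NT_2. With siRNA 1 alone the count of 49 was 29 and 28 without those controls, and 30 and 28 without those siRNA 1 libraries. For the fits without a library no share of all genes called is given, so these counts have no background beside them. On the TPM scale the calls split as 9 up and 32 down with siRNA 1 and as 17 up and 67 down with siRNA 2. The median log2 changes of all genes were also lower on that scale, -0.051 and -0.085 against -0.001 and -0.01 in the main fit. No share of all genes called is given for it.

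B3galt4 was the only member that rose with each siRNA at both stages, and Foxc1 the only one that fell. In myotubes B3galt4 was at 0.685, 0.917 and 0.818 CPM in controls, at 1.8, 1.83 and 2.12 CPM with siRNA 1 and at 1.73, 2.31 and 2.22 CPM with siRNA 2. The depleted libraries all exceeded the controls, with log2 changes of 1.23 ± 0.17 (adjusted p = 0.000484) and 1.36 ± 0.17 (adjusted p = 0.000104). It shares no 31-base word with another gene and overlaps none. B630019K06Rik changed in opposite directions at the 2 stages. It rose in myoblasts from 1.8 ± 0.0893 to 2.55 ± 0.31 and 2.61 ± 0.203 CPM, and fell in myotubes from 2.28 ± 0.0864 to 1.38 ± 0.242 and 1.53 ± 0.0997 CPM. The difference between stages was -1.17 ± 0.17 on the log2 scale (adjusted p = 3.2e-05). Its myoblast change with siRNA 1 lost its call when the second control, the third control or the second siRNA 1 library was left out. Foxc1 was at 12.8, 16.3 and 15.7 CPM in control myotubes, at 10.9, 10.1 and 10.7 CPM with siRNA 1 and at 12.5, 11.4 and 11.1 CPM with siRNA 2. Its log2 changes were -0.51 ± 0.09 (adjusted p = 0.00156) and -0.36 ± 0.09 (adjusted p = 0.00623), and the first control stood near the depleted libraries.

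**Figure D3:**
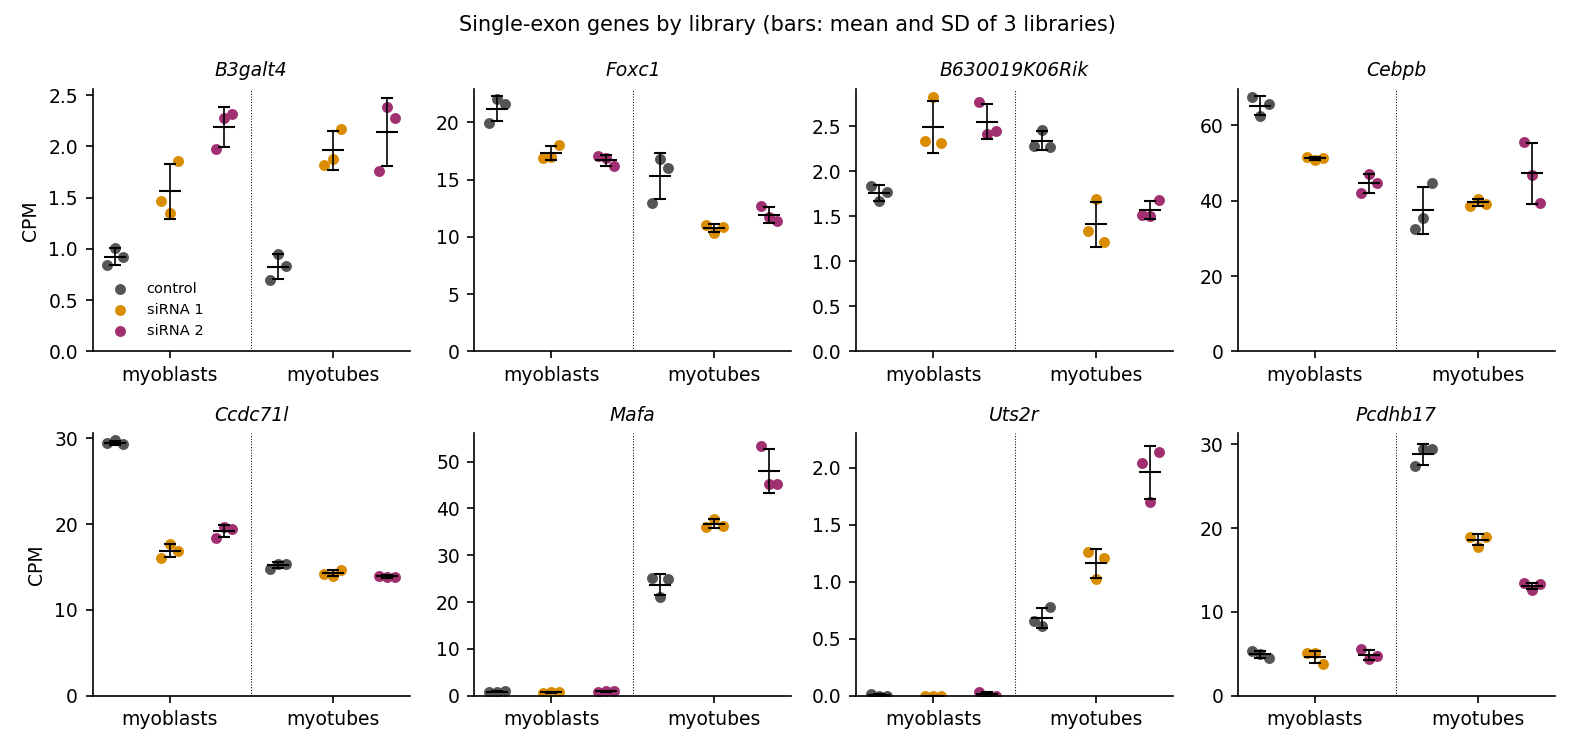
CPM in each of the 18 libraries for 8 single-exon genes, scaled over all libraries, with grey points for control, orange for siRNA 1 and purple for siRNA 2, myoblasts left and myotubes right of the dotted line, and black bars for the mean and SD of 3 libraries. B3galt4 is higher and Foxc1 lower in all 12 depleted libraries than in the controls of their stage, while Pcdhb17 separates from control in myotubes alone.

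Transcription factor and receptor genes were among the rises in myotubes. Mafa, which rose on differentiation, was at 24.6, 20.4 and 24.3 CPM in control myotubes, at 35.7, 36.9 and 35.4 CPM with siRNA 1 and at 52.4, 43.8 and 44 CPM with siRNA 2. The 3 groups did not overlap, and the log2 changes were 0.64 ± 0.09 (adjusted p = 0.000712) and 1.02 ± 0.09 (adjusted p = 2.08e-05). In myoblasts, where it was at most 1.11 CPM in any library, its changes were -0.26 ± 0.22 (adjusted p = 0.479) and 0.12 ± 0.22 (adjusted p = 0.724), and the difference between stages was 0.91 ± 0.19 (adjusted p = 0.00162). Uts2r, the urotensin II receptor, went from 0.664 ± 0.0873 to 1.14 ± 0.131 and 1.91 ± 0.235 CPM. Ufsp1, a protease of the ubiquitin-like modifier UFM1, went from 2.21 ± 0.225 to 3.55 ± 0.472 and 5.77 ± 0.866 CPM. Lpar6, a lysophosphatidic acid receptor, fell by 0.34 ± 0.1 and 0.27 ± 0.09 on the log2 scale. Lpar6 lies opposite Rb1, with 8.5% of its words shared.

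Smaller rises with each siRNA were seen in Fem1a, a substrate receptor of ubiquitin ligases (log2 0.27 ± 0.04 and 0.34 ± 0.04), Fibin (log2 0.33 ± 0.1 and 0.6 ± 0.09) and the corepressor Irf2bp1 (log2 0.13 ± 0.04 with each). Sap18b and Gm11808 also rose, but share 98.8% and 94.7% of their words with other genes. Asprv1 fell from 2.81 ± 0.129 to 0.946 ± 0.177 and 1.39 ± 0.316 CPM (log2 -1.56 ± 0.19 and -1.01 ± 0.18). Hspb3 fell as well, by 0.37 ± 0.1 and 0.33 ± 0.1 on the log2 scale. Sox11 fell by 0.28 ± 0.06 and 0.27 ± 0.06, H2afx by 0.25 ± 0.07 and 0.2 ± 0.07, and Pnmal2 by 0.24 ± 0.04 and 0.12 ± 0.04. Otud1, a deubiquitinase named after its values were seen, fell by 0.14 ± 0.04 and 0.38 ± 0.04. The other 5 that fell were Borcs6, Nsmce3, Rap2b, Rrs1 and Tspyl5, named to complete the count.

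Most of the tested protocadherin beta genes fell in depleted myotubes. Clustered protocadherins are cell surface proteins that bind their like on the facing cell and are best known for giving neurons an identity. In the alpha and gamma clusters a variable exon is spliced to shared constant exons. A beta gene is typically a complete single exon with its own promoter, on chromosome 18. In the annotation used here Pcdhb2, Pcdhb8 and Pcdhb22 fell outside the single-exon rule. Of the 18 with a row, Pcdhb1 had no count in any library and the other 17 were tested in myotubes, 8 of them also in myoblasts.

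Summed over the 18 genes, the level was 9.57, 8.61 and 8.48 TPM in control myoblasts and 46.7, 46.9 and 46.9 TPM in control myotubes. It was 34.4, 29.9 and 31.3 TPM in myotubes with siRNA 1 and 23.9, 22.5 and 22.7 TPM with siRNA 2, so that the 3 groups of myotubes did not overlap. In myoblasts it was 8.91, 8.83 and 7.08 TPM with siRNA 1 and 9.46, 7.93 and 7.79 TPM with siRNA 2, overlapping the controls. Counts behind these sums ran from 939 to 7615 per library.

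**Figure D4:**
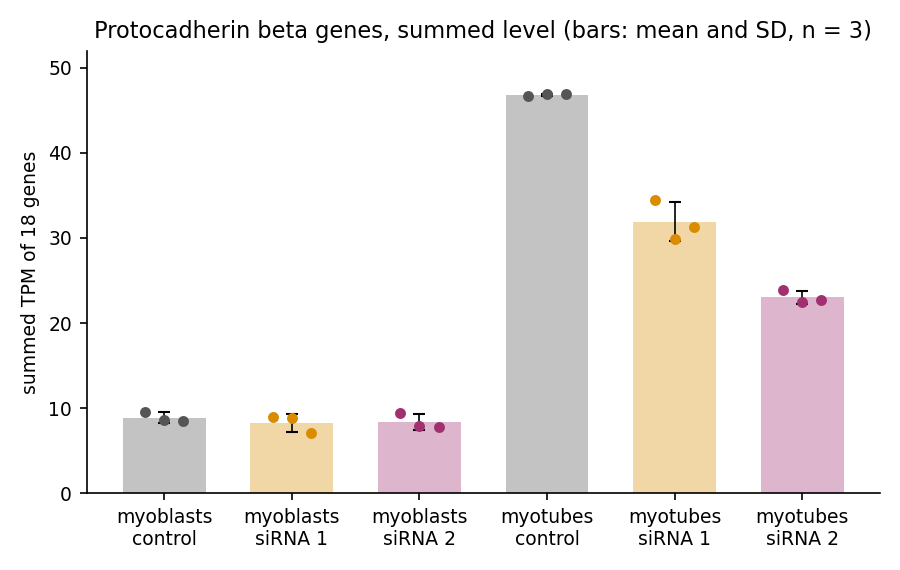
Summed TPM of the 18 protocadherin beta genes in each library (points), with the mean (bar) and SD (line) of 3 libraries per group. Myoblast groups lie between 7.08 and 9.57 TPM, and in myotubes the sums fall from about 46.8 TPM in controls to means of 31.9 and 23 TPM with siRNA 1 and siRNA 2.

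Of the 17 tested in myotubes, 13 fell with siRNA 1 and 14 with siRNA 2, 13 of them with each, and none rose by edgeR's test, at an unadjusted p under 0.05, by DESeq2 or by limma on TPM. Of all genes tested, 9.57% and 16.4% were called lower. Of the 17, 5 (Pcdhb3, Pcdhb4, Pcdhb9, Pcdhb10 and Pcdhb13) passed the filter on low counts only with the controls, and the 2 of these called with each siRNA, Pcdhb9 and Pcdhb13, are not counted as support. Of the 12 that the depleted libraries alone would have passed, 11 fell with each siRNA, all but Pcdhb5. Their median log2 changes were -0.59 and -1.05, where the median of all genes was 0.00 and -0.01. Pcdhb17, which had the most counts of the family, was at 26.9, 28.6 and 28.9 CPM in control myotubes, at 18.7, 17.4 and 18.5 CPM with siRNA 1 and at 13.1, 12.2 and 12.9 CPM with siRNA 2. The groups did not overlap, and the log2 changes were -0.63 ± 0.05 (adjusted p = 1.88e-05) and -1.14 ± 0.05 (adjusted p = 1.44e-07). Pcdhb16 went from a mean of 22.2 to 14.9 and 11.2 CPM, and Pcdhb14 from 6.93 ± 0.318 to 4.14 ± 0.551 and 2.65 ± 0.368 CPM. The smallest change with siRNA 1 was that of Pcdhb21, -0.21 ± 0.06 on the log2 scale, where siRNA 2 gave -0.64 ± 0.06.

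**Figure D5:**
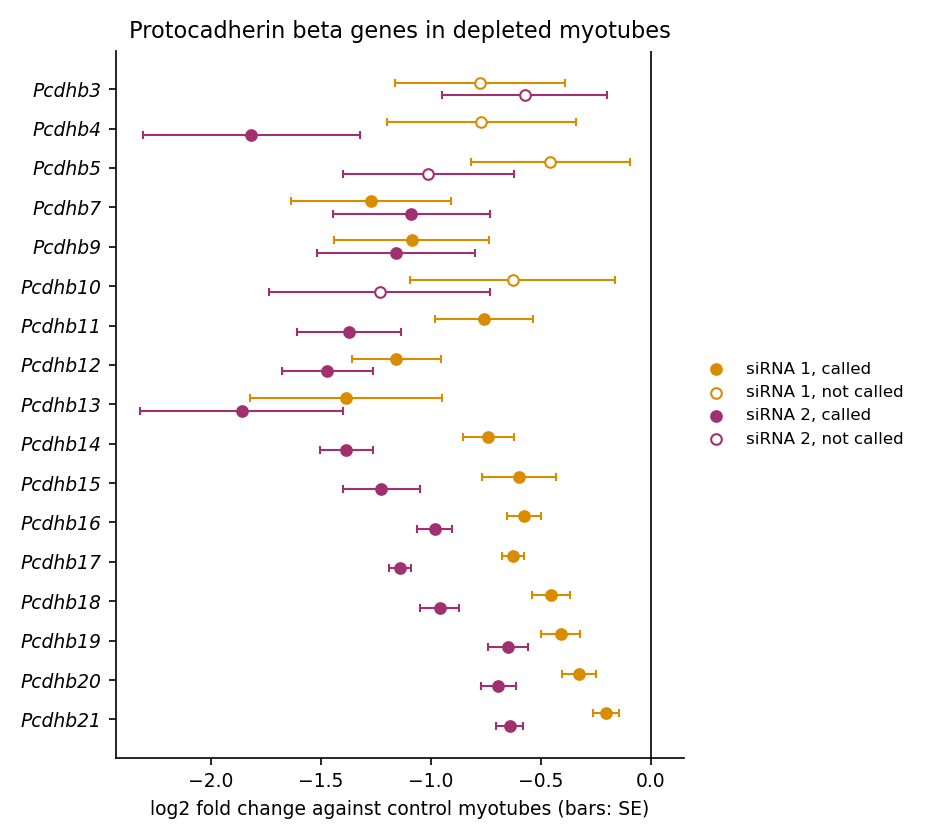
Log2 fold change against control myotubes of the 17 tested protocadherin beta genes, with siRNA 1 in orange and siRNA 2 in purple, bars for the SE, and filled points for an adjusted p under 0.05. The filled points all lie left of 0, and for 7 genes siRNA 2 was also called lower than siRNA 1.

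The 4 not called with siRNA 1 were Pcdhb3, Pcdhb4, Pcdhb5 and Pcdhb10, each with 34 to 56 counts over the 3 control myotube libraries, and Pcdhb4 was called with siRNA 2. Directly compared, 7 of the 17 were lower with siRNA 2 than with siRNA 1, among them Pcdhb17 (log2 -0.51 ± 0.05, adjusted p = 7.27e-05). Of all 16097 genes tested in myotubes, 1506 were called lower in that comparison. In myoblasts edgeR called none of the 8 tested with either siRNA. At an unadjusted p under 0.05 there were 0 with siRNA 1 and 1 with siRNA 2, and DESeq2 and limma on TPM called 0. In 4 alternatives 1 gene was called lower with siRNA 2, and with the name prefix in the model 1 was also called lower with siRNA 1. The depletion effect was lower in myotubes than in myoblasts for 7 of 17, with Pcdhb17 at -0.83 ± 0.11 (adjusted p = 2.16e-05) and Pcdhb14 at -0.82 ± 0.17 (adjusted p = 0.00126). Of all 16930 genes tested, 2166 were called lower in this way. Only 8 of the 17 passed the filter in myoblasts.

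The number that fell with each siRNA in myotubes was 13 with RLE scaling, 12 with the name prefix in the model, 11 on the TPM scale and 10 by DESeq2, which gave 12 of the 17 an adjusted p. It was 6 without the second siRNA 1 library, 7 without the third, 8 without the second control and 7 without the third, and 9 to 13 without any other single library. No share of all genes is given for the fits without a library. Pcdhb12 overlaps Gm37446 on the other strand and shares 66.9% of its words, while the other 16 tested share 5.2% to 19.4%, mostly with each other. The neighbouring genes outside the rule were looked at after these values were seen. Of 3 tested Pcdhb genes outside it, 1 fell with each siRNA (medians -0.22 and -0.93), as did 1 of 17 gamma genes (medians -0.14 and -0.20) and 0 of 2 alpha genes (medians -0.08 and -0.68). Among neuron markers, Snap25 and Syt1 stayed under 0.04 TPM in every library. Tubb3, which muscle cells also express, was at 60.7 to 75.8 TPM in control myotubes, 41.5 to 48.1 TPM with siRNA 1 and 38.6 to 47.9 TPM with siRNA 2, and the part of cells that express it in the protocadherin values was not tested.

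The 2 siRNAs differed from each other for 65 of 285 members in myoblasts (22.8%, where 26.3% of all genes were called) and 40 of 293 in myotubes (13.7%, where 17.1% were). Spliced genes at like expression were called in 19.5% in myoblasts and 15% in myotubes. In myoblasts Papolb, a poly(A) polymerase known from testis, was at 0.37, 0.152 and 0.474 CPM with siRNA 1 and at 1.04, 1.16 and 1.02 CPM with siRNA 2 (log2 1.68 ± 0.29, adjusted p = 0.00119), with controls between them at 0.56 to 0.685 CPM. Klhdc7a and Ccdc184 were higher with siRNA 2 and Gm10197 lower, each under 0.5 CPM in every library, and Gm10197 shares 97.1% of its words, chiefly with Mxi1. Klhdc7a and Ccdc184 passed the filter on low counts only through siRNA 2 and had to be higher there. Gm10197 passed it only through libraries other than those of siRNA 2. The differences of Klhdc7a, Ccdc184 and Gm10197 are therefore no support. In myotubes Cdk5r2, an activator of the kinase CDK5, was lower with siRNA 2 (0.166 ± 0.0688 CPM) than with siRNA 1 (0.82 ± 0.181 CPM). Hrct1 was lower as well (log2 -0.95 ± 0.23, adjusted p = 0.0128), and Lrrc30 was higher, at 7.17 ± 0.8 against 3.76 ± 0.561 CPM. Kbtbd13 was at 3.67, 1.49 and 1.72 CPM with siRNA 2 against 1.19, 1.09 and 1.16 CPM with siRNA 1 (adjusted p = 0.0471), the first siRNA 2 library standing above the rest.

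Some members moved in opposite directions with the 2 siRNAs. In myoblasts Sox11 was at 127, 127 and 125 CPM in controls, at 104, 107 and 102 CPM with siRNA 1 and at 151, 156 and 164 CPM with siRNA 2. The groups did not overlap, with log2 changes of -0.27 ± 0.03 (adjusted p = 0.000144) and 0.31 ± 0.03 (adjusted p = 1.93e-05). Tbcc and Amd2, named because the count is small, rose with siRNA 1 and fell with siRNA 2. In myotubes Tmem158 rose with siRNA 1 to 71.6, 74.4 and 71.8 CPM and fell with siRNA 2 to 43.5, 45.2 and 45 CPM, from 57.4, 60.4 and 55.9 CPM in controls (log2 0.33 ± 0.04 and -0.38 ± 0.04). Of all genes tested, 1.04% in myoblasts and 0.509% in myotubes were called in opposite directions, beside 1.05% (3) and 0.341% (1) of members.

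The depletion effect, as the mean of both siRNAs against control, differed between stages for 60 of 323 members (18.6%), 38 higher and 22 lower in myotubes, where 23.4% of all genes were called and 18.1% of spliced genes at like expression. Foxq1 was lower with depletion in myoblasts and at 11.3, 11.5 and 12.9 CPM with siRNA 2 in myotubes, against 7.26, 6.18 and 7.95 CPM in controls. With siRNA 1 no FOX gene was called higher in myotubes, and the largest FOX estimate was 0.26 on the log2 scale. The difference between stages of Foxq1 was 1.66 ± 0.27 (adjusted p = 0.000342), with the antisense overlap given above. Cebpb differed likewise (log2 0.65, adjusted p = 0.00274), its myotube changes being 0.08 ± 0.15 (adjusted p = 0.775) and 0.33 ± 0.15 (adjusted p = 0.144). Kcna3 (log2 1.61 ± 0.49) and 9030612E09Rik (log2 1.88 ± 0.57) had higher estimates but were under 0.5 CPM in at least 1 stage.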

How the data were processed

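RNA of C2C12 myoblasts and myotubes was measured in 6 groups of 3 libraries. Per the file headers, the authors deposited 1 table per stage with salmon-type columns per transcript: TPM, scaled within each library by the authors, and estimated counts (NumReads), not scaled between libraries. Build mm10 and DESeq2 are named in the submitters' processing notes. For the quantifier and the annotation, names and versions were not given in the sources used here.

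Of 115088 transcripts, 114200 were matched to GENCODE M21, and the expected counts as deposited were added up within each gene, then rounded to integers. Differential expression was tested in R 4.3.3 with edgeR 4.0.16: filterByExpr with a minimum count of 10, TMM scaling, glmQLFit with robust estimates, glmQLFTest and Benjamini-Hochberg adjustment, and genes were called below an adjusted p of 0.05. Each stage had its own fit of 9 libraries (6 residual degrees of freedom). The fit of all 18 libraries (12 residual degrees of freedom) gave the change on differentiation and the test of whether depletion acted differently at the 2 stages. CPM values are TMM-scaled, from the stage fit for depletion and from the fit of all libraries for differentiation. Standard errors were derived from the F statistic.

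Spliced genes had every coding transcript of 2 or more exons. Like expression means the share of spliced genes called in bins 1 log2 CPM wide, averaged with the number of members per bin as weights. Shared sequence is the percent of a member's 31-base words found in transcripts of other genes. Promoter windows are RefSeq's.

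Alternatives were RLE scaling, no filter, DESeq2 1.42.0, limma 3.58.1 on log2(TPM + 0.5), name prefix or replicate number in the model, and leaving out each library. Members counted without shared or overlapping sequence were alternatives chosen after seeing the data. On simulated data with the counts of these libraries the stage fits recovered 71% of genes changed 1.5-fold and 91% changed 2-fold in myoblasts. In myotubes they recovered 65% and 81% (15531 and 16069 genes tested). Of the unchanged genes, 10 and 15 were called. The changed genes were drawn from all genes with a mean of at least 10 counts, so recovery among the lowly expressed members was not measured. Only 100 genes were changed at each fold, far fewer than were called in the data. The adjusted threshold was therefore stricter than in the real fits, and the recovered shares do not carry over to them.

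Named members were the 12 of highest control TPM, the 10 largest rises and falls on differentiation with at least 1 CPM in a control group, up to 10 members in each direction that each siRNA moved without overlap with controls, the 4 largest differences between siRNAs, the 4 highest and lowest between stages, and the 2 most abundant of each family set on symbols. A few genes that meet this rule are not reported here. The members, lists and families were chosen with earlier results of these data known. Depth was 43.5 to 66.6 megareads per library, and intervals and floors cover counting error only.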

Additional observations from a re-analysis of the deposited data

Results flagged for a closer look

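The effect of Setd2 depletion differed between myotubes and myoblasts for the 20 members listed here, by edgeR's test of the difference at an adjusted p under 0.05. They were taken only from members named for a change with each siRNA or for the highest and lowest stage differences. The list was thus chosen in part by the same values, and members named for other reasons are not in it. Of all genes tested, 23.4% were called. The values are log2 differences, myotubes minus myoblasts. Below 0 were B630019K06Rik at -1.17, Pcdhb15 at -0.9, Pcdhb17 at -0.83, Pcdhb14 at -0.82, Mgat2 at -0.35 and Rpl10-ps3 at -0.25. Above 0 were 9030612E09Rik at 1.88, Foxq1 at 1.66, Kcna3 at 1.61, A530084C06Rik at 1.56, Ufsp1 at 0.98, Mafa at 0.91, Cebpb at 0.65, Ccdc71l at 0.61, Gm14137 at 0.52, Inafm1 at 0.5, Itpripl2 at 0.34, Fem1a at 0.34, Gm11808 at 0.22 and Irf2bp1 at 0.18. Foxq1 and A530084C06Rik overlap on opposite strands, and Rpl10-ps3 and Gm11808 share nearly all their sequence with other genes.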

How the results depend on the processing

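Of 1783 recomputed values for 104 comparisons of named members, 1650 kept their direction and their side of the threshold, 133 kept their direction and lost the call, and none reversed. The losses were most frequent in weakly counted members: Pcdhb9 with siRNA 1 in myotubes lost its call in 12 alternatives, and the difference between siRNAs of Kbtbd13 and of Ccdc184 in 9 each. With the name prefix in the model, members called in myoblasts numbered 64 with siRNA 1 (31 without; 32.3% of all genes, 20% without), 33 with each siRNA (18 without; 19.8% of all genes, 11.9% without) and 107 between the siRNAs (65 without; 40.2% of all genes, 26.3% without). That difference was called for 43 members when those with an exon overlap were left out of the count. Fitting the replicate number as a block gave 48 members with siRNA 1 (27.8% of all genes) and 30 with each siRNA (16.6%) in myoblasts. Deviations from the group means of same-numbered libraries correlated between -0.03 and 0.3 in the 14 pairs that also share the name prefix, and between -0.15 and -0.05 in the 4 that do not, so number and prefix are largely the same split and the pairing was not taken as given. Leaving out 1 library gave 19 to 36 members with siRNA 1, 65 to 88 with siRNA 2, 12 to 20 with each and 45 to 74 between siRNAs in myoblasts. In myotubes the ranges were 28 to 66, 56 to 82, 22 to 43 and 27 to 40. They were 226 to 239 for differentiation and 46 to 62 for the difference between stages. No share of all genes called is given for the fits without a library. The cause of the changes in count between settings was not tested. RLE scaling and limma on TPM moved the median of all genes by less than 0.1 on the log2 scale. At the depth of these libraries the 564 members under 10 counts in all could not be assessed.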
